A study of Homo sapiens with 21 samples.

Results

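Aminoacyl-tRNA synthetases are the enzymes that join each amino acid to its transfer RNA, and 35 of their genes were followed here among the 60668 genes of the deposited count tables. They were taken by name from a list of 19 synthetases of the cytosol and 16 of the mitochondrion. The rule itself uses no measured value, but the list was chosen with earlier results of these data known. All 35 were found in the tables and passed the filter on low counts. In the gene names the first letter gives the amino acid in the single-letter code (A for alanine, K for lysine, Y for tyrosine), and a final 2 marks most mitochondrial enzymes. EPRS1 carries both the glutamate and the proline enzyme in a single protein, FARSA and FARSB are the subunits of the phenylalanine enzyme, and GARS1 and KARS1 each supply the cytosol and the mitochondrion. By the fold of their active site the enzymes are divided into class I and class II. Several cytosolic members (EPRS1, IARS1, KARS1, LARS1, MARS1, QARS1 and RARS1 of those listed) are held together with the scaffold proteins AIMP1, AIMP2 and EEF1E1 in the multisynthetase complex. When amino acids or charged tRNAs run short, the kinase GCN2 (gene EIF2AK4) phosphorylates eIF2α and the transcription factor ATF4 is made, and several cytosolic synthetase genes are known targets of ATF4. The proto-oncogene MYC, which drives growth and the making of ribosomes and tRNAs, is known to bind many genes of the translation machinery.

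The libraries were polyA-selected RNA-seq of HCC1806, a human triple-negative breast cancer cell line grown as a monolayer, in 7 groups with 3 replicates each. One count table held 3xCTL (genotype given as control), 3xSR (a line named for the joint overexpression of SRSF2, SRSF3 and SRSF7) and MYC-OE (MYC overexpression). The other held 1xCtrl (a control with a single plasmid) and the lines SRSF2-OE, SRSF3-OE and SRSF7-OE, each overexpressing 1 of these SR proteins, a family of RNA-binding splicing factors. Each line was compared with the control of its own table, to ask how far the synthetase genes follow the splicing factors or MYC. The promoter and vector of each construct, and whether a line is 1 clone, are not given in the labels, and 3xCTL may not carry the same vector as MYC-OE. The labels do not say that replicates were separate cultures, so p-values measure the spread between these libraries, which may be technical.

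Library totals ran from 143269192 to 303323552 counts. The lowest synthetase in any library, PARS2, had 797 counts. MYC was 96.6, 90.99 and 92.6 CPM in the 3 libraries of 3xCTL and 171, 170.0 and 181 CPM in MYC-OE, a log2 fold change of 0.90 (edgeR adjusted p = 5.7e-08, SE 0.0472). CPM (counts per mega-count) is the count relative to library size after TMM scaling, a correction for differences in composition. MYC was also higher in 3xSR (log2 fold change 0.75), SRSF3-OE (0.26) and SRSF7-OE (0.27). Of 16 alternatives the MYC call was lost in 8 in SRSF3-OE, among them total counts alone and 5 that left out a library, and in 5 in SRSF7-OE, 4 of them without a library. SRSF3 and SRSF7 were higher in their own lines (log2 fold changes 0.49 and 0.26) and in 3xSR (0.31 and 0.44), and both were also higher in SRSF2-OE (0.30 and 0.24). SRSF2 was not higher: under the SRSF2-OE label its log2 fold change was -0.16 (edgeR adjusted p = 0.098, SE 0.064) and under the 3xSR label -0.06 (edgeR adjusted p = 0.389, SE 0.0516), so every direction given for these 2 groups is that of the libraries so labelled. The 11 epithelial and basal markers summed to 6119 to 8428 CPM, and of the receptors that are low or absent in triple-negative cells ESR1 was at most 11.5 CPM, PGR at most 1.46 CPM and ERBB2 at 99.5 to 184 CPM. The 11 markers of blood, vessel and stromal cells summed to 14.9 to 24.8 CPM in 3xCTL, 43.5 to 47.8 CPM in MYC-OE, 17.6 to 34.2 CPM in 1xCtrl and 39.5 to 43.0 CPM in SRSF3-OE. It was 26.5 to 29.2 CPM in 3xSR, 31.1 to 33.5 CPM in SRSF2-OE and 33.95 to 36.7 CPM in SRSF7-OE. Most of that sum was CD68 (5.92 to 36.1 CPM) and COL1A1 (5.46 to 15.7 CPM), while CD3E, PECAM1 and CDH5 were at 0 in at least 1 library and at most 0.149 CPM in any. CD68 had a mean of 8.51 CPM in 3xCTL and 34.6 CPM in MYC-OE, and 12.2 CPM in 1xCtrl and 30.7 CPM in SRSF3-OE. ACTA2 was also higher in MYC-OE (mean 1.47 CPM) than in 3xCTL (0.82 CPM), but lower in SRSF3-OE (0.769 CPM) than in 1xCtrl (1.2 CPM). COL1A1, VWF and PDGFRB had no higher mean in MYC-OE or SRSF3-OE than in their control. The part of this sum in the synthetase results was not tested. In such bulk libraries fewer cells of a type and less RNA per cell cannot be told apart.

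Replicate 2 of each control stood apart from the other libraries of its group in step with the GC content of the transcripts. In 3xCTL it was the lowest of the 3 replicates for 6 of the 7 synthetases with a GC content of 55% or more and the highest for all 11 under 45%. In 1xCtrl it went the other way, highest for 5 of the same 7 genes and lowest for all 11. Across the 35 genes its log2 ratio to the mean of replicates 1 and 3 had a Pearson correlation with GC content of -0.74 in 3xCTL and 0.85 in 1xCtrl, a description over genes that share the same libraries. FARSA, VARS1, SARS2 and VARS2, with GC contents of 59.3 to 62.6%, deviated most in 3xCTL. FARSA was 88.5, 54.3 and 76.1 CPM in 3xCTL and 45.1, 81.7 and 35.3 CPM in 1xCtrl, so the second library was the lowest in 3xCTL and the highest in 1xCtrl. It was named after its values were seen. Counts of changed synthetases are therefore also given without replicate 2 of the control and with the GC trend of each library removed.

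**Figure D1:**
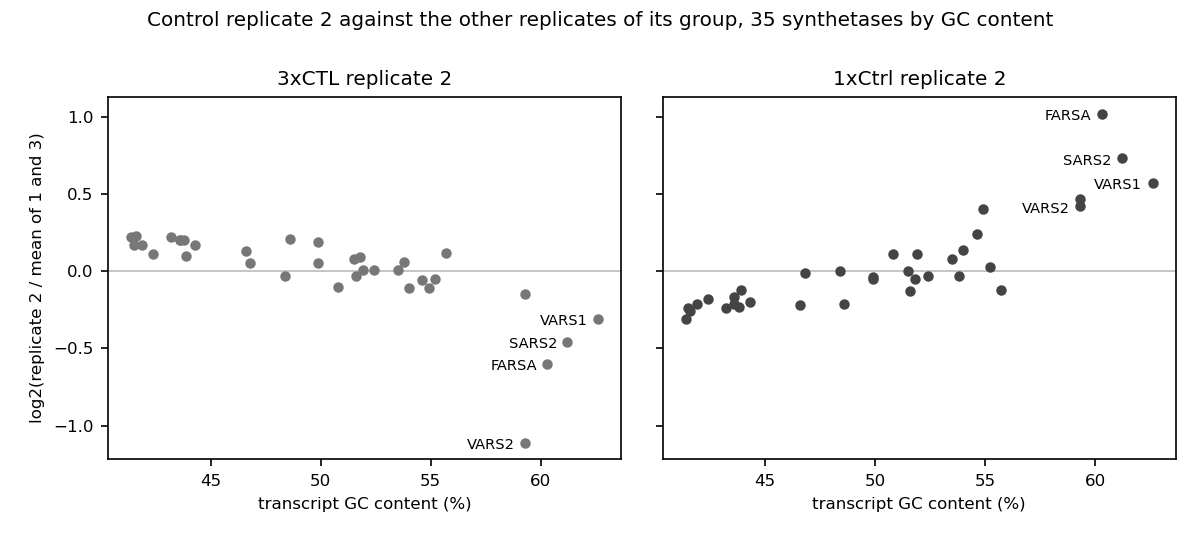
Each point is 1 of the 35 synthetase genes, with the GC content of its transcript in percent on the x axis and the log2 ratio of control replicate 2 to the mean of replicates 1 and 3 on the y axis, for 3xCTL (left) and 1xCtrl (right). The points fall with GC content in 3xCTL (down to -1.11, VARS2) and rise in 1xCtrl (up to 1.02, FARSA).

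Promoter sequences show which members carry the sequence elements bound by the regulators named above. RefSeq's table (build GRCh38.p14) gave 39 starts for 30 of the 35 genes, and the 250 bases before each start were searched on both strands for the E-box CACGTG, bound by MYC with MAX, and for the C/EBP-ATF composite element TGATGNAA (on the other strand TTNCATCA), bound by ATF4 with C/EBP partners. The E-box was found for IARS1, EARS2 and MARS2, 3 of the 39 starts (7.7%), against 6.3% of all 35116 promoters in the table. The composite element was found for AARS1, GARS1, IARS1 and YARS2, 4 of the 39 starts (10.3%), against 3.1% of all promoters. These shares are descriptions without a test, and no matches overlapped. Counted from the start, which is preceded by position -1, the composite elements lay at -187 to -180 in AARS1, -13 to -6 in IARS1, -33 to -26 in GARS1 and -197 to -190 in YARS2, and the E-boxes at -186 to -181 in IARS1, -11 to -6 in MARS2 and -15 to -10 in EARS2. The 4 windows below are examples chosen with the expression results known. AARS1 and IARS1 were higher in MYC-OE, YARS2 was higher in 4 of the 5 lines, and MARS2 was lower in MYC-OE and higher in SRSF3-OE. The IARS1 call was lost in several alternatives, among them total counts alone (edgeR adjusted p = 0.0755) and without 3xCTL replicate 3 (edgeR adjusted p = 0.123). EARS2, which has an E-box and changed in no line, and GARS1 are not shown. The 4 windows shown lie at chr16:70289507-70289756 (minus strand), chr9:92293698-92293947 (minus strand), chr12:32755898-32756147 (minus strand) and chr2:197705119-197705368 (plus strand), and are written 5′ to 3′ along the gene with the matched element in capitals.
AARS1: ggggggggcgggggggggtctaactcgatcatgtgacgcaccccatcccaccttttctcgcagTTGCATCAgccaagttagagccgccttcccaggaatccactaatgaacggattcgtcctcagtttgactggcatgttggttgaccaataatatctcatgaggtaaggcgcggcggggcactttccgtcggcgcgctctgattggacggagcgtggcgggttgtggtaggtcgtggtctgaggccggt
IARS1: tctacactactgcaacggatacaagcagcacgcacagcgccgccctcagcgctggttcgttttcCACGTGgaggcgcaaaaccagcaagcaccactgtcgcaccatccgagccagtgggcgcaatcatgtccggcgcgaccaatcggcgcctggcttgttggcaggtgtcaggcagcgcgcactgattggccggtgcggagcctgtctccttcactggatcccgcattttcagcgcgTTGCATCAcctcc
YARS2: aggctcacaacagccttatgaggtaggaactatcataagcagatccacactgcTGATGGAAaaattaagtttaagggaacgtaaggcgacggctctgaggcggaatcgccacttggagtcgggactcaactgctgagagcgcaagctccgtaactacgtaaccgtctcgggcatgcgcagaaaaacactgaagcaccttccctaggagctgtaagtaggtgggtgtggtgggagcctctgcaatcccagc
MARS2: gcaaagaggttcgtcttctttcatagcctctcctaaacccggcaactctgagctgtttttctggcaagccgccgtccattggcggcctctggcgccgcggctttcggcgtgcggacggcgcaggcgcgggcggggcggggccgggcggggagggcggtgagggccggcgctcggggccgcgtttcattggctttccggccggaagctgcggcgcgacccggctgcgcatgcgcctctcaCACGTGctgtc

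Divided by transcript length, the cytosolic genes were more abundant than most mitochondrial ones. The median over the 21 libraries had a median of 51.6 CPM per kilobase over the 19 cytosolic genes (6.39 to 93.1) and 10.2 over the 16 mitochondrial genes (2.31 to 124). The highest level of all was that of IARS2, the mitochondrial isoleucine enzyme (124 CPM per kilobase), followed by EPRS1 (93.1) and the methionine enzyme MARS1 (92.2). The lowest was PARS2, the mitochondrial proline enzyme (2.31), and the lowest cytosolic member was the cysteine enzyme CARS1 (6.39). The ranges over libraries of neighbours in this order overlapped, as for EPRS1 (78.4 to 110.1) and MARS1 (72.4 to 110.0), except between RARS2 and TARS2 and between FARS2 and PARS2. These ratios use the longest annotated transcript of each gene, and the 2 tables were scaled separately.

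Summed over the compartment, the cytosolic synthetases stood at 3263, 3432 and 3135 CPM in the 3 libraries of 3xCTL, 3327, 3175 and 3206 in 3xSR and 3632, 3589 and 3595 in MYC-OE. All 3 MYC-OE libraries lay above the range of 3xCTL, while those of 3xSR lay within it. In the other table the sum was 3086, 2937 and 3120.1 CPM in 1xCtrl, 3181, 3117 and 2967 in SRSF2-OE, 3237, 2974 and 3138 in SRSF3-OE and 3227, 3338 and 3093 in SRSF7-OE, and these ranges overlapped. The mitochondrial sum was 984, 994 and 998 CPM in 3xCTL and 1041, 1065 and 1049 CPM in MYC-OE, again without overlap. It was 959, 958 and 954 CPM in 1xCtrl and 870.1, 895 and 869.7 CPM under the SRSF2-OE label, below the range of its control. In 3xSR it was 983, 993 and 986 CPM and overlapped 3xCTL. No test was made of these sums. IARS2 alone gave 432 of the mean of 957 CPM in 1xCtrl, and 349 of 878 CPM in SRSF2-OE. It gave 442 of the mean of 992 CPM in 3xCTL, and 512 of 1052 CPM in MYC-OE. In both comparisons the mean of IARS2 moved by more than the mitochondrial sum. The sum of the other mitochondrial genes therefore did not rise in MYC-OE or fall in SRSF2-OE. In MYC-OE that sum joins genes that rose (CARS2, LARS2, TARS2 and YARS2) with genes that fell (AARS2, HARS2, MARS2 and SARS2), as given below. SARS2 fell most, from a mean of 59.2 CPM in 3xCTL to 28.5 CPM in MYC-OE.

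**Figure D2:**
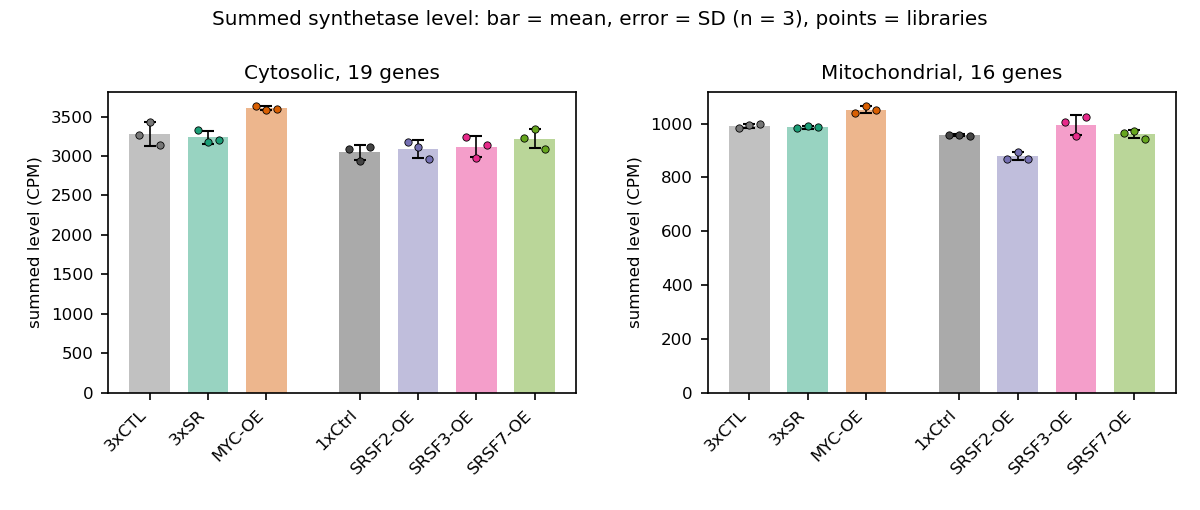
Summed level in CPM of the 19 cytosolic (left) and 16 mitochondrial (right) synthetase genes in each group, with bars for the mean, error bars for the SD (n = 3) and points for libraries; the groups left and right of the gap come from separately scaled tables. The cytosolic mean was 3605 CPM in MYC-OE against 3277 in 3xCTL, and the mitochondrial mean was 878 CPM in SRSF2-OE against 957 in 1xCtrl.

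A gene was called changed at an adjusted p under 0.05 in edgeR's quasi-likelihood test over all genes of the table. By this rule 27 of the 35 synthetases changed in at least 1 of the 5 lines and none in all 5. In single lines 17.3% (SRSF7-OE) to 35.3% (MYC-OE) of all genes tested changed. The share of all genes that changed in at least 1 line was not counted, so the 27 are not read as particular to synthetases. KARS1, TARS1, WARS1 and YARS2 changed in 4 lines, and AARS1, MARS1 and SARS1 in 3. FARSA, QARS1, RARS1 and VARS1 of the cytosol and EARS2, FARS2, RARS2 and VARS2 of the mitochondrion changed in none, although without replicate 2 of the control each of the 4 cytosolic genes passed in at least 1 line. KARS1, TARS1 and YARS2 were higher in each of their 4 lines, whereas AARS1, CARS1, HARS1, MARS1, SARS1, WARS1, YARS1, IARS2 and MARS2 were higher in some lines and lower in others. Changes were small: outside SARS2, every called log2 fold change lay between -0.38 and 0.52. Lines of 1 table share their control libraries, so their fold changes are not independent of each other.

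**Figure D3:**
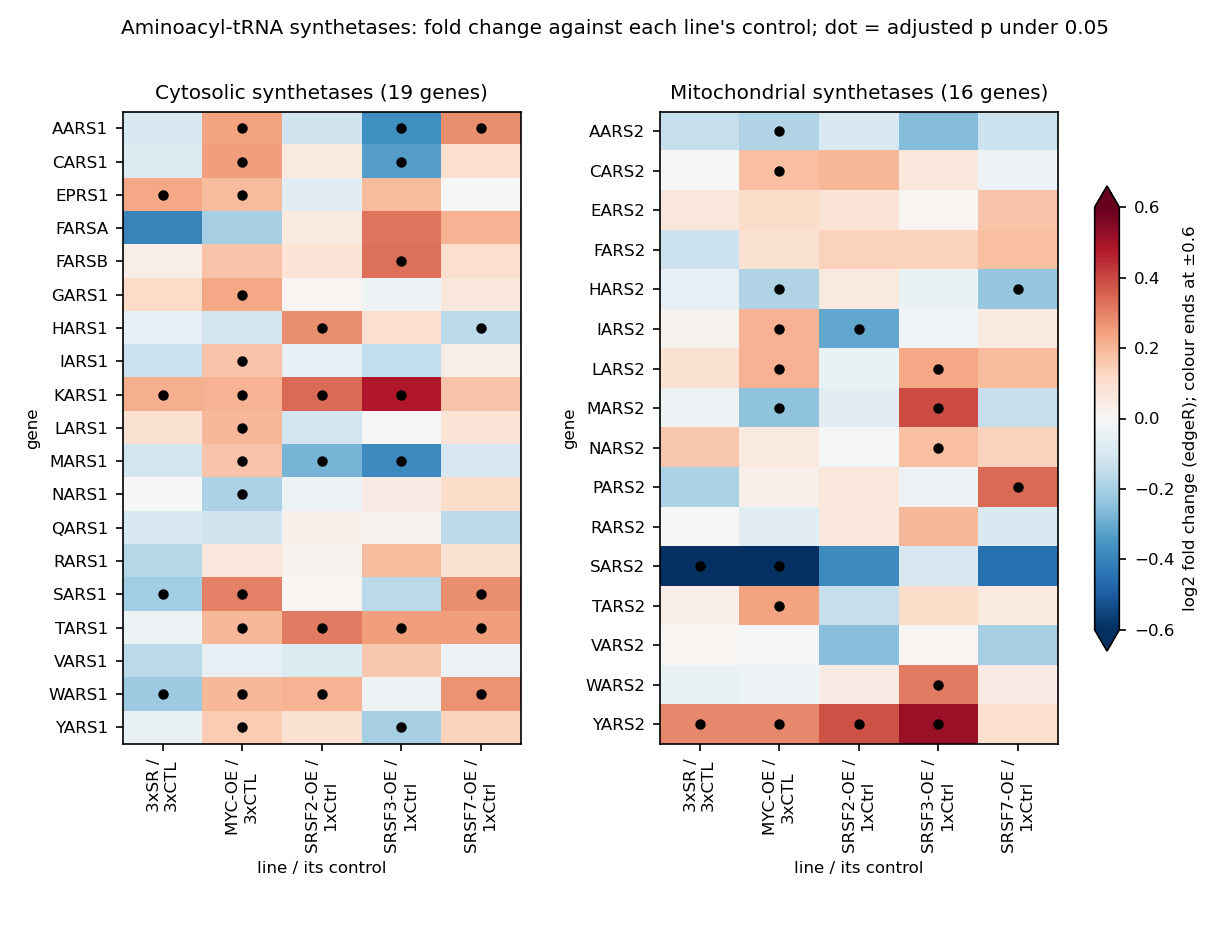
Log2 fold change (colour, from -0.6 to 0.6, more extreme values in the end colours) of each cytosolic (left) and mitochondrial (right) synthetase gene in 5 lines against their controls, with a dot where the edgeR adjusted p was under 0.05. MYC-OE has 12 dots on higher values among the 19 cytosolic genes; SARS2, with -0.68 in 3xSR and -1.05 in MYC-OE, lies beyond the colour range.

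MYC was higher by 0.90 on the log2 scale in MYC-OE and by 0.75 in 3xSR, against the same control. In 3xSR, 3 synthetases rose and 3 fell, as given below. Whether the changes in MYC-OE follow the level of MYC was not tested. In MYC-OE, 17 of the 35 synthetases rose and 5 fell against 3xCTL. Of the 23160 genes tested in this comparison, 35.3% changed (18.0% higher, 17.3% lower). Of the 11459 tested genes with a mean of 5 CPM or more, which include all 35 synthetases, 45.9% changed, 21.4% higher and 24.5% lower. Of the 19 cytosolic enzymes 12 rose and 1 fell, with a median log2 fold change of 0.17 against 0.00 over all genes. The 12 and 1 became 6 and 1 without MYC-OE replicate 1, 6 and none without MYC-OE replicate 2, 14 and 3 without 3xCTL replicate 2, and 13 and 5 with the GC trend removed. Of the 16 mitochondrial enzymes 5 rose and 4 fell (median 0.05). Among the 7 listed members of the multisynthetase complex, EPRS1, IARS1, KARS1, LARS1 and MARS1 rose, while QARS1 (-0.12) and RARS1 (0.07) did not pass with all libraries. Without 3xCTL replicate 2 both passed, RARS1 as higher (0.15, edgeR adjusted p = 0.0336) and QARS1 as lower (-0.13, edgeR adjusted p = 0.0371). Class I enzymes had 10 higher and 1 lower of 18, and class II 6 higher and 4 lower of 16. EPRS1, which belongs to both classes, is counted in neither.

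The serine enzyme SARS1 had the largest rise, from 111, 113 and 105 CPM in the 3 libraries of 3xCTL to 133, 135 and 136 CPM in MYC-OE. All 3 MYC-OE libraries lay above all 3 controls, and the log2 fold change was 0.30 (edgeR adjusted p = 0.000514, SE 0.0484). CARS1, for cysteine, was 36.96, 35.9 and 34.2 CPM in 3xCTL and 42.9, 42.1 and 42.6 CPM in MYC-OE. AARS1, for alanine, was 211, 206 and 199.6 CPM in 3xCTL and 243, 247 and 242 CPM in MYC-OE. Neither gene's groups overlapped, and the log2 fold changes were 0.25 (edgeR adjusted p = 0.00151, SE 0.0481) and 0.24 (edgeR adjusted p = 0.00096, SE 0.0436). WARS1, for tryptophan, was nearly the same in the MYC-OE replicates, at 107, 107 and 107 CPM against 94.6, 97.6 and 89.1 CPM in 3xCTL, a log2 fold change of 0.20 (edgeR adjusted p = 0.008, SE 0.0487). MARS1, for methionine, moved from 334, 354 and 344 to 381, 395 and 385 CPM (edgeR adjusted p = 0.0166, SE 0.0482), and KARS1 from 172, 182 and 162 to 199, 198 and 199.6 CPM (edgeR adjusted p = 0.0134, SE 0.0576). For both, every MYC-OE library lay above every control library. TARS1, for threonine, was 326, 358 and 299 CPM in 3xCTL and 383, 367 and 381 CPM in MYC-OE, and EPRS1 was 428, 489.8 and 411 CPM in 3xCTL and 514, 501 and 497 CPM in MYC-OE. The groups of both were separate by little, and their calls were near the threshold (edgeR adjusted p = 0.0388 and 0.0458). The other cytosolic rises were GARS1, LARS1, IARS1 and YARS1, with log2 fold changes of 0.15 to 0.23. NARS1, for asparagine, was the cytosolic member that fell, from 109, 118 and 102 to 100.2, 95.02 and 92.6 CPM, a log2 fold change of -0.19 (edgeR adjusted p = 0.0299, SE 0.062).

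Among the mitochondrial enzymes, YARS2 was 39.9, 41.3 and 39.9 CPM in 3xCTL and 50.6, 47.6 and 49.99 CPM in MYC-OE, with a log2 fold change of 0.29 (edgeR adjusted p = 0.000615, SE 0.0489). IARS2 rose from 411, 485 and 431 to 508, 526 and 503 CPM, a log2 fold change of 0.21 (edgeR adjusted p = 0.0158, SE 0.0598). TARS2, LARS2 and CARS2 were higher by 0.18 to 0.24. The largest fall in the family was that of SARS2, the mitochondrial serine enzyme, from 66.1, 47.4 and 64.2 to 28.3, 28.2 and 28.98 CPM, a log2 fold change of -1.05 (edgeR adjusted p = 0.000139, SE 0.125). The low second control library of SARS2 still lay above all MYC-OE libraries. Without it the value was -1.19 (edgeR adjusted p = 1.06e-07, SE 0.0751). Leaving out the lowest control library necessarily enlarges a fall, so this value is not read as support. In the annotation SARS2 shares 1492 of its 3231 exon bases with AC011455.2 on the same strand, so reads from those bases cannot be assigned to SARS2 alone. MARS2 fell from 25.99, 24.7 and 24.6 to 21.2, 21.6 and 20.97 CPM, a log2 fold change of -0.24 (edgeR adjusted p = 0.00607, SE 0.0567). HARS2, for histidine, went from 48.1, 55.1 and 48.4 to 43.8, 44.03 and 46.1 CPM (edgeR adjusted p = 0.0363, SE 0.0601). AARS2 fell by 0.18 on the log2 scale with overlapping groups (edgeR adjusted p = 0.0466).

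The counts of 17 and 5 became 19 and 6 without 3xCTL replicate 2, and 18 and 9 with the GC trend removed; without MYC-OE replicate 1 they were 10 and 3, without replicate 2 they were 10 and 2, and without replicate 3 the number that fell was 3. With total counts alone 12 rose and 7 fell (8 and 3 of the cytosolic genes). AARS1, CARS1, KARS1, SARS1, WARS1, LARS2, TARS2 and YARS2 among the rises, and MARS2 and SARS2 among the falls, stayed past the threshold in all 16 alternative fits of this comparison.

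**Figure D4:**
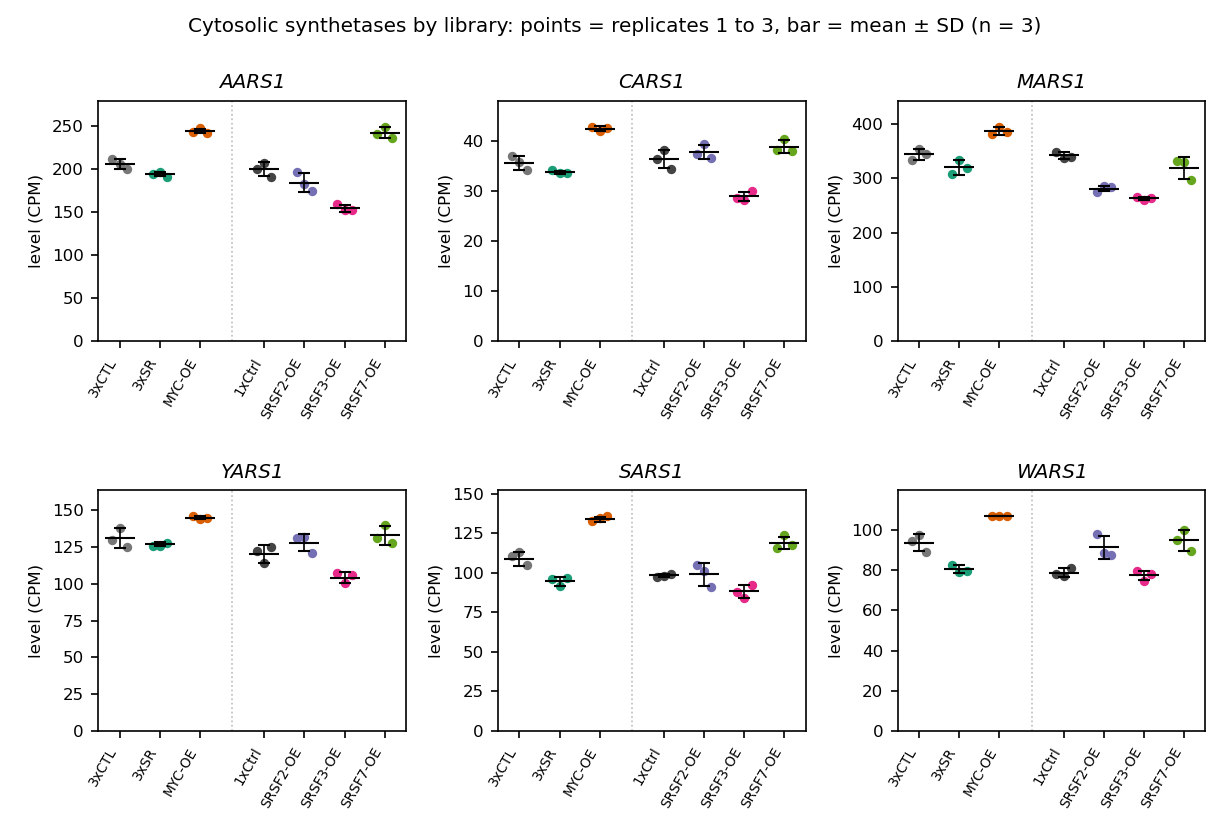
Level in CPM (y axis, from 0) of 6 cytosolic synthetase genes in each of the 21 libraries; points are replicates 1 to 3, the horizontal bar and whiskers are mean ± SD (n = 3), and the dotted line parts the separately scaled tables. AARS1 stands at 244 ± 2.48 CPM in MYC-OE, 242 ± 6.5 in SRSF7-OE and 154 ± 3.84 in SRSF3-OE, against 206 ± 5.89 in 3xCTL and 199.6 ± 7.92 in 1xCtrl.

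In SRSF3-OE, 8 of the 35 synthetases rose and 4 fell against 1xCtrl, where 29.2% of the 24362 genes tested changed (15.0% higher, 14.1% lower), so their share was near that of all genes. Of tested genes with a mean of 5 CPM or more, 41.7% changed (27.0% higher, 14.7% lower). Of the cytosolic enzymes 3 rose and 4 fell (median log2 fold change 0.02), and of the mitochondrial enzymes 5 rose and none fell (median 0.09, all genes -0.03), which became 2 and 2 with total counts alone and 2 and 1 with upper-quartile factors. No test was made of the difference between compartments. Which direction prevails depends on the scaling of the libraries: with total counts alone 4 rose and 8 fell, and with upper-quartile factors 4 rose and 6 fell, while the median over all genes moved from -0.03 to -0.14 and -0.09. The synthetase median moved in parallel, from 0.05 under TMM to -0.06 with total counts alone.

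AARS1 fell from 200.1, 207 and 191 CPM in the 3 libraries of 1xCtrl to 159, 152 and 152 CPM in SRSF3-OE, CARS1 from 36.5, 38.2 and 34.5 to 28.7, 28.2 and 30.03 CPM, and MARS1 from 349, 338 and 339 to 265, 260.0 and 263 CPM. In all 3 genes the groups were well apart. Their log2 fold changes were -0.37 (edgeR adjusted p = 0.000399, SE 0.0585), -0.33 (edgeR adjusted p = 0.00117, SE 0.0601) and -0.38 (edgeR adjusted p = 0.000202, SE 0.055). YARS1, the cytosolic tyrosine enzyme, fell by 0.20 on the log2 scale (edgeR adjusted p = 0.0239, SE 0.061). MARS1 shares 874 of its 7028 exon bases with ARHGAP9 and DDIT3 on the opposite strand, and whether strand was used in counting is not given in the sources used here. KARS1 rose from 158, 139 and 164 to 224, 205 and 211 CPM, a log2 fold change of 0.48 (edgeR adjusted p = 0.000569, SE 0.0791). FARSB rose by 0.33 (edgeR adjusted p = 0.0063, SE 0.0793), and TARS1, at 313, 287 and 334 CPM in 1xCtrl and 391, 339 and 382 CPM in SRSF3-OE, rose by 0.25 (edgeR adjusted p = 0.0199, SE 0.0736). TARS1 lost its call in 7 of 16 alternatives, among them the fit without 1xCtrl replicate 2.

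YARS2 had the largest rise of the family in any line, from 39.6, 40.2 and 43.1 CPM in 1xCtrl to 61.8, 54.2 and 59.9 CPM in SRSF3-OE. The lowest SRSF3-OE library lay above the highest control, and the log2 fold change was 0.52 (edgeR adjusted p = 5.74e-05, SE 0.0632). MARS2 rose from 21.3, 21.7 and 22.00 to 29.8, 26.7 and 28.5 CPM, a log2 fold change of 0.39 (edgeR adjusted p = 0.000332, SE 0.06). WARS2, LARS2 and NARS2, for tryptophan, leucine and asparagine, rose by 0.31, 0.23 and 0.18, and lost their calls in 5, 8 and 11 of the 16 alternatives. Without 1xCtrl replicate 2 the counts were 10 higher and 5 lower, and with the GC trend removed 13 and 6; without SRSF3-OE replicate 1 or without replicate 3, 4 rose, and without 1xCtrl replicate 1, 5 rose. FARSB, KARS1, MARS2 and YARS2 stayed higher, and AARS1, CARS1 and MARS1 lower, in every alternative.

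**Figure D5:**
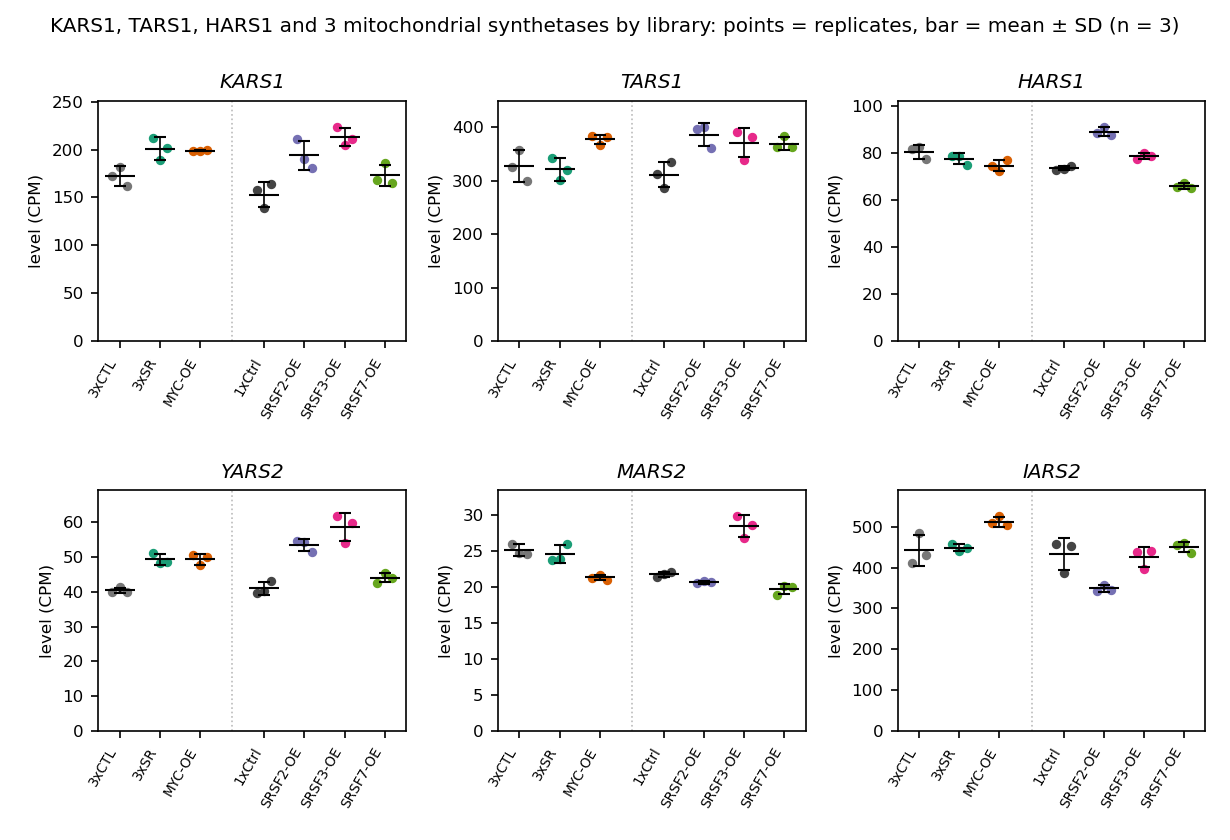
Level in CPM (y axis, from 0) of KARS1, TARS1, HARS1 and the mitochondrial YARS2, MARS2 and IARS2 in each of the 21 libraries; points are replicates 1 to 3, the horizontal bar and whiskers are mean ± SD (n = 3), and the dotted line parts the separately scaled tables. YARS2 stands at 58.7 ± 3.93 CPM in SRSF3-OE against 40.99 ± 1.86 in 1xCtrl, and MARS2 at 28.4 ± 1.55 in SRSF3-OE but 21.3 ± 0.33 in MYC-OE.

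In SRSF7-OE, 5 synthetases rose and 2 fell against 1xCtrl, where 17.3% of all genes tested changed (9.03% higher, 8.26% lower). AARS1 was 240.4, 249 and 236 CPM in the SRSF7-OE libraries, above all 3 of 1xCtrl, with a log2 fold change of 0.28 (edgeR adjusted p = 0.00621, SE 0.0584). SARS1 went from 97.6, 98.3 and 99.2 CPM in 1xCtrl to 116, 124 and 118 CPM in SRSF7-OE, a log2 fold change of 0.28 (edgeR adjusted p = 0.00857, SE 0.0621). WARS1 went from 78.1, 77.1 and 81.3 to 94.9, 100.2 and 89.8 CPM, likewise without overlap (edgeR adjusted p = 0.0103, SE 0.0622). TARS1 was 362, 383 and 362 CPM in SRSF7-OE, a log2 fold change of 0.25 (edgeR adjusted p = 0.0351, SE 0.0736). PARS2 rose from 5.09, 5.16 and 4.27 to 5.68, 6.62 and 6.11 CPM (edgeR adjusted p = 0.0406, SE 0.105), the one mitochondrial enzyme that rose. The histidine enzymes both fell. HARS1 went from 72.9, 73.4 and 74.7 to 65.7, 67.3 and 65.01 CPM and HARS2 from 53.2, 52.3 and 55.1 to 46.6, 46.6 and 43.99 CPM, with log2 fold changes of -0.16 (edgeR adjusted p = 0.0355, SE 0.0476) and -0.23 (edgeR adjusted p = 0.0127, SE 0.0545). The histidine genes lie head to head on chromosome 5 and share 437 exon bases on opposite strands, so that some reads could be counted for either. No call in this line held in all 16 alternatives: without 1xCtrl replicate 1, or without SRSF7-OE replicate 2, no synthetase passed as higher, and without SRSF7-OE replicate 1 or without replicate 3, 3 did. Those that fell were 4 without 1xCtrl replicate 3 and 1 without SRSF7-OE replicate 3. Without 1xCtrl replicate 2 the counts were 8 higher and 2 lower, and with the GC trend removed 11 and 6, while upper-quartile factors gave 3 and 2.

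Under the SRSF2-OE label, where SRSF2 itself was not raised, 5 synthetases rose and 2 fell against 1xCtrl, where 23.5% of all genes tested changed (11.6% higher, 11.9% lower). YARS2 was 54.5, 54.3 and 51.4 CPM, above all 3 libraries of 1xCtrl, with a log2 fold change of 0.38 (edgeR adjusted p = 0.000847, SE 0.0631). KARS1, at 211, 190.0 and 181 CPM, and TARS1, at 396, 401 and 360.4 CPM, were likewise above their controls, with log2 fold changes of 0.34 (edgeR adjusted p = 0.00715, SE 0.079) and 0.31 (edgeR adjusted p = 0.00817, SE 0.0736). HARS1 rose to 88.6, 91.3 and 87.5 CPM (edgeR adjusted p = 0.00114, SE 0.0476), and was thus above 1xCtrl here and below it in SRSF7-OE. WARS1 was 98.2, 88.5 and 87.8 CPM in these libraries, a log2 fold change of 0.21 (edgeR adjusted p = 0.0233, SE 0.0622), and lost its call in 6 of 16 alternatives. MARS1 fell to 275, 285 and 283 CPM, a log2 fold change of -0.28 (edgeR adjusted p = 0.00247, SE 0.055). IARS2 fell from 457, 387 and 452 to 342, 358 and 346 CPM (edgeR adjusted p = 0.00658, SE 0.0705) and was the most abundant mitochondrial member. Apart from WARS1, these calls held in every alternative. Without 1xCtrl replicate 2 the counts were 7 higher and 3 lower, and with the GC trend removed 6 and 4. Without 1xCtrl replicate 3, 4 fell, and with total counts alone 4 rose and 3 fell.

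In the libraries labelled 3xSR, 3 synthetases rose and 3 fell against 3xCTL, a smaller share than the 29.0% of all genes tested that changed (15.3% higher, 13.7% lower). YARS2 rose from 39.9, 41.3 and 39.9 to 51.2, 48.4 and 48.7 CPM, a log2 fold change of 0.29 (edgeR adjusted p = 0.000847, SE 0.049). EPRS1, at 552, 497 and 512 CPM in 3xSR, rose by 0.23 (edgeR adjusted p = 0.0206, SE 0.0666), and KARS1, at 212, 189 and 202 CPM, by 0.22 (edgeR adjusted p = 0.0122, SE 0.0576). SARS1 fell to 96.3, 91.6 and 96.6 CPM and WARS1 to 82.7, 79.3 and 79.4 CPM, below all 3 libraries of 3xCTL. Their log2 fold changes were -0.21 (edgeR adjusted p = 0.00695, SE 0.0484) and -0.22 (edgeR adjusted p = 0.00517, SE 0.0488), opposite in sign to those in MYC-OE. SARS2 fell to 33.4, 42.03 and 35.7 CPM, a log2 fold change of -0.68 (edgeR adjusted p = 0.00281, SE 0.124), with the limit on its shared exon given above. EPRS1 lost its call in 5 of 16 alternatives and KARS1 in 2. Without 3xCTL replicate 2 the counts were 6 higher and 6 lower, and with the GC trend removed 3 and 5; 1 synthetase rose without 3xSR replicate 1, and 1 rose and 5 fell without 3xCTL replicate 3.

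Lines of 1 table were also compared directly. Against SRSF3-OE, 7 synthetases were higher and 9 lower in SRSF7-OE, where 35.2% of all genes tested differed (17.3% higher, 17.8% lower). AARS1 differed most, by 0.65 (edgeR adjusted p = 3.07e-06, SE 0.0587) on the log2 scale, followed by SARS1 at 0.43 and CARS1 at 0.42. PARS2, YARS1, WARS1 and MARS1 were also higher in SRSF7-OE, by 0.28 to 0.37. MARS2 was lower by 0.53 (edgeR adjusted p = 2.1e-05, SE 0.06), YARS2 by 0.41 and KARS1 by 0.30. The balance of this comparison depends on the scaling: 13 were higher and 4 lower when libraries were scaled by their totals, and 7 and 5 under upper-quartile factors. Without SRSF3-OE replicate 3 or without SRSF7-OE replicate 3, 5 were lower. In MYC-OE against 3xSR, 13 synthetases were higher and 3 lower, where 34.9% of all genes tested differed (17.3% higher, 17.6% lower). Without 3xSR replicate 3, 7 were higher and none lower, and without 1 of the MYC-OE replicates 0 or 1 were lower. SARS1 (0.50), WARS1 (0.42), AARS1 (0.33) and CARS1 (0.33) led, and SARS2 (-0.38), MARS2 (-0.21) and NARS1 (-0.20) were lower. The differences of KARS1 (-0.01, 95% interval -0.13 to 0.10) and YARS2 (0.00, -0.10 to 0.10), which rose in both lines, did not pass.

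SRSF3-OE against SRSF2-OE had 8 synthetases higher and 5 lower, where 26.8% of all genes tested differed (14.1% higher, 12.6% lower). MARS2 (0.46) and IARS2 (0.29) led the mitochondrial members, 6 of which were higher and none lower, and CARS1 (-0.38) and YARS1 (-0.29) were the lowest. Under upper-quartile factors 2 were higher and 6 lower, and 4 and 8 when scaled by totals. Without SRSF2-OE replicate 3 or without SRSF3-OE replicate 1, 2 were higher, without SRSF3-OE replicate 3, 4, and without SRSF2-OE replicate 2, 5. SRSF7-OE against SRSF2-OE had 5 higher and 4 lower, where 24.2% of all genes tested differed (12.8% higher, 11.5% lower), led by AARS1 (0.39) and IARS2 (0.37) above and HARS1 (-0.43) below. Scaled by totals, 10 were higher and 3 lower, and without SRSF2-OE replicate 1, 8 were higher.

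The joint fit over both tables, in which each effect was taken against its own control, asked whether the effect in 3xSR differed from that in SRSF3-OE. It did for 6 synthetases, 3 in each direction, where 17.8% of the 25013 genes tested differed (10.8% higher, 7.02% lower). The effects of AARS1, CARS1 and MARS1 were higher in 3xSR, and those of MARS2, WARS2 and RARS1 lower. The number lower ranged from 1 to 8 when single libraries were left out: 1 without 3xCTL replicate 2, 3xSR replicate 2 or 3xSR replicate 3, 5 without 1xCtrl replicate 2, 7 without 3xCTL replicate 3 or 3xSR replicate 1, and 8 without 1xCtrl replicate 3 or SRSF3-OE replicate 2. Scaled by totals, 4 effects were higher and 1 lower, under upper-quartile factors 3 and 1, and the median of all genes moved from 0.04 to 0.12 and 0.09. The effect in MYC-OE differed from that in SRSF7-OE for MARS1, higher, and NARS1, lower, where 13.7% of all genes tested differed (7.60% higher, 6.13% lower). None was lower without 3xCTL replicate 2, MYC-OE replicate 3 or SRSF7-OE replicate 2, and 3 were without 1xCtrl replicate 2. For SARS1, which rose in both, the difference of the effects was 0.02 with a 95% interval of -0.12 to 0.17, and for AARS1 it was -0.03 (-0.17 to 0.11).

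The high-GC members FARSA and VARS1, named after their values were seen, passed in no line with all libraries. Without replicate 2 of the control, FARSA was lower in 3xSR (-0.57) and MYC-OE (-0.37) and higher in SRSF2-OE (0.48), SRSF3-OE (0.73) and SRSF7-OE (0.65), with edgeR adjusted p = 2.94e-05, 0.000931, 0.0495, 0.00705 and 0.0147. VARS1, the valine enzyme, was then lower in 3xSR (-0.25) and MYC-OE (-0.14) and higher in SRSF3-OE (0.36) and SRSF7-OE (0.19). With all libraries FARSA had log2 fold changes of -0.40, -0.20, 0.06, 0.32 and 0.21 in the same order, and its groups overlapped in each. FARSA in 3xSR (57.3, 57.5 and 51.4 CPM) was near 3xCTL replicate 2 (54.3 CPM) and below replicates 1 and 3 (88.5 and 76.1 CPM). In the SRSF2-OE, SRSF3-OE and SRSF7-OE libraries it lay below 1xCtrl replicate 2 (81.7 CPM) and above replicates 1 and 3 (45.1 and 35.3 CPM). Control replicate 2 was left out after these genes were seen to deviate in it, so these adjusted p-values are not read as calls. VARS2, which shares 1858 of its 8448 exon bases with GTF2H4 on the same strand, passed in no line with or without that library.

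Genes around the synthetases were taken from 7 lists, chosen with earlier results of these data known. The amino acid response and ATF4 targets (32 genes) had 14 higher and 2 lower in MYC-OE and 10 higher and 2 lower in SRSF7-OE, with medians of 0.16 and 0.17 against 0.00 over all genes. Of all genes tested, 18.0% were higher and 17.3% lower in MYC-OE, and 9.03% and 8.26% in SRSF7-OE; of those with a mean of 5 CPM or more, 21.4% and 24.5% in MYC-OE. Without control replicate 2 these were 16 and 3, and 17 and 4, and in SRSF7-OE the number higher was 5 without SRSF7-OE replicate 1 and 6 without 1xCtrl replicate 1 or SRSF7-OE replicate 3. In SRSF3-OE 9 were higher and 10 lower (5 and 12 when scaled by totals), in 3xSR 7 and 8, and in SRSF2-OE 6 and 8. Of all genes tested, 15.0% were higher and 14.1% lower in SRSF3-OE, 15.3% and 13.7% in 3xSR, and 11.6% and 11.9% in SRSF2-OE. ASNS, the asparagine synthetase that makes the amino acid used by NARS1, was 0.96 (edgeR adjusted p = 7.56e-07) in MYC-OE and -1.08 (edgeR adjusted p = 4.38e-07) in SRSF3-OE as log2 fold changes. ATF3, a stress-induced transcription factor, rose in 3xSR (1.39), MYC-OE (1.18) and SRSF3-OE (1.20) and fell in SRSF7-OE (-0.44). The enzymes of serine synthesis, PHGDH, PSAT1 and PSPH, named after their values were seen, rose in MYC-OE (0.33, 0.31 and 0.29) and SRSF7-OE (0.40, 0.47 and 0.40) and fell in SRSF3-OE (-0.76, -0.48 and -0.32). PHGDH also fell in 3xSR (-0.36) and SRSF2-OE (-0.33). AARS1 moved in the same directions as the 3 enzymes in MYC-OE, SRSF7-OE and SRSF3-OE, a match drawn after the values were seen. It did not pass in 3xSR or SRSF2-OE, where PHGDH fell. Other synthetases went another way, as KARS1 and TARS1 rose in SRSF3-OE. A link between these genes was not tested. In SRSF3-OE, PPP1R15A, a subunit that directs the dephosphorylation of eIF2α, rose by 1.22 (and by 0.37 to 0.56 in 3xSR, MYC-OE and SRSF2-OE), and CBS, an enzyme that makes cystathionine, fell by 1.14. NUPR1 (0.86) and CEBPB (0.63) had the highest values in SRSF7-OE. EIF2AK4, the gene of GCN2, fell by 0.31 in MYC-OE, 0.26 in 3xSR and 0.29 in SRSF2-OE. SLC38A2, an importer of neutral amino acids, rose by 0.41 in 3xSR and fell by 0.16 in MYC-OE, 0.55 in SRSF2-OE and 0.37 in SRSF7-OE.

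Among the genes that make the tRNA substrates, 3 lists are to be read against all genes tested, of which 15.0% rose and 14.1% fell in SRSF3-OE, 18.0% and 17.3% in MYC-OE, 11.6% and 11.9% in SRSF2-OE, 15.3% and 13.7% in 3xSR and 9.03% and 8.26% in SRSF7-OE. Of genes with a mean of 5 CPM or more, 27.0% rose and 14.7% fell in SRSF3-OE, against 21.4% and 24.5% in MYC-OE. Of 21 genes for tRNA transcription by RNA polymerase III, 11 rose and none fell in SRSF3-OE, led by POLR3B (0.49) and GTF3C1 (0.42); with total counts alone 8 rose and 1 fell. In MYC-OE 1 rose, GTF3C5 (0.36), and 6 fell, the lowest BDP1 (-0.38) and POLR3F (-0.35). The counts were 1 higher and 3 lower in 3xSR, 3 and 2 in SRSF2-OE, and 3 and 1 in SRSF7-OE. POLR3G, an alternative polymerase subunit, rose in 3xSR (0.76) and SRSF3-OE (0.40) and fell in SRSF2-OE (-0.46). Of 26 genes for the processing of tRNA ends, splicing, ligation and export, 13 rose and 1 fell in SRSF2-OE, 12 and none in SRSF3-OE, 5 and 6 in MYC-OE, 2 and 3 in 3xSR, and 2 and 1 in SRSF7-OE. SSB, the La protein that protects the 3′ ends of new tRNAs, rose in all 5 lines (3xSR 0.83, MYC-OE 1.06, SRSF2-OE 0.59, SRSF3-OE 0.48, SRSF7-OE 0.55). TSEN54, of the tRNA splicing endonuclease, fell in MYC-OE (-0.60), SRSF2-OE (-0.34) and SRSF7-OE (-0.47). Of 45 genes for tRNA modification, 14 rose and 1 fell in SRSF3-OE, 12 and 2 in SRSF2-OE, 6 and 11 in MYC-OE, 5 and 3 in 3xSR and 2 and 6 in SRSF7-OE. TP53RK, of the complex that makes the t6A base, rose by 0.73 in SRSF3-OE and 0.59 in SRSF2-OE. Over the 16 alternatives the number higher in SRSF3-OE ranged from 7 to 16 for transcription, 8 to 16 for end processing and 10 to 24 for modification, and in MYC-OE from 1 to 2, 4 to 7 and 2 to 10.

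The remaining lists stand closest to charging itself. Their counts are to be read against 9.03% (SRSF7-OE) to 18.0% (MYC-OE) of all genes tested that rose in a line, and 8.26% to 17.3% that fell. Of the scaffold proteins of the multisynthetase complex, AIMP2 and EEF1E1 rose in SRSF3-OE (0.39 and 0.33), AIMP2 rose and AIMP1 fell in SRSF2-OE (0.37 and -0.25), and none of the 3 passed in 3xSR, MYC-OE or SRSF7-OE. Of the 4 genes for indirect charging and formylation in mitochondria, MTFMT, which formylates the initiator methionyl-tRNA made by MARS2, fell by 0.93 in 3xSR, 0.66 in MYC-OE and 0.60 in SRSF3-OE (edgeR adjusted p = 0.000281, SE 0.0907). QRSL1 and GATB, subunits of the amidotransferase that makes mitochondrial glutaminyl-tRNA, rose in SRSF3-OE (0.39 and 0.27), and GATC rose in SRSF2-OE (0.28). Of 12 genes for editing of misacylated tRNA, selenocysteine and peptidyl-tRNA release, 0 to 3 rose and 0 to 2 fell in a line. TARS3, a threonyl-tRNA synthetase like TARS1, fell in 3xSR (-0.62), and PTRHD1 rose in SRSF2-OE (0.85), SRSF3-OE (0.35) and SRSF7-OE (0.52).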

How the data were processed

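Gene-level RNA-seq of 21 libraries was used: whole-number counts per gene, deposited by the authors as 2 tables and not scaled, as the differing column sums show. Per the labels' protocols the libraries were polyA-selected, stranded and paired-end. Several totals exceed the read number stated there, and how a count relates to a read pair is not given in the sources used here. The submitters' processing notes name Trimmomatic 0.39, STAR, StringTie 2.1.3b and GRCh38.p13, with no role or order; the counting step, its strand setting and the annotation release are not given in the sources used here. Positions, shared exons and the length and GC content of the longest transcript came from GENCODE release 29, in which 58561 of the 60668 gene identifiers were found, and promoter sequences from RefSeq.

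Libraries were grouped by title. Counts were tested with edgeR 4.0.16 (R 4.3.3): filterByExpr (minimum count 10, minimum total 15), TMM scaling, robust quasi-likelihood F test, Benjamini-Hochberg adjustment over all genes of the table, threshold 0.05, 2-sided. Each table had 1 fit over its groups; differences between effects used a joint fit.  All log2 fold changes and levels (CPM) were computed here. The test was checked on simulated data with changes larger than those called here outside SARS2, and with no library shifted by GC content. The check therefore does not bear on changes as small as most of those called. Members and gene lists were chosen with earlier results of these data known. Values in every library were given for members called in at least 3 of the 5 comparisons with a control, or among the 3 highest or lowest called log2 fold changes of any, and from each list at most 2 genes up and 2 down per comparison. A listed gene that met this rule in any comparison could be given in others too. Outside the rule, FARSA, VARS1, PHGDH, PSAT1 and PSPH were named after their values were seen. Alternatives were other scalings (RLE, upper-quartile, total counts), filters, DESeq2 1.42.0, limma-voom (limma 3.58.1), only the groups compared, a replicate block, removal of each library's GC trend in 50 bins, and leaving out each library.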

Additional observations from a re-analysis of the deposited data

Results flagged for a closer look

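The effects of 2 lines, each measured against its own control, differed in edgeR's joint test for 8 pairs of a synthetase and a comparison. For 3xSR minus SRSF3-OE, 8.57% of the synthetases were higher and 8.57% lower, near the 10.8% and 7.02% of all genes tested. For MYC-OE minus SRSF7-OE, 2.86% were higher and 2.86% lower, below the 7.60% and 6.13% of all genes tested. For 3xSR minus SRSF3-OE the difference on the log2 scale was 0.30 for AARS1 (edgeR adjusted p = 0.00589), 0.26 for CARS1 (0.0148), 0.29 for MARS1 (0.00491), -0.35 for RARS1 (0.0283), -0.41 for MARS2 (0.000728) and -0.34 for WARS2 (0.0308). In the separate tests AARS1, CARS1 and MARS1 fell and MARS2 and WARS2 rose in SRSF3-OE, and none of the 5 passed in 3xSR. RARS1, the cytosolic arginine enzyme, passed in neither line, with log2 fold changes of -0.17 and 0.19.

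For MYC-OE minus SRSF7-OE the difference was 0.28 for MARS1 (edgeR adjusted p = 0.00798) and -0.30 for NARS1 (edgeR adjusted p = 0.0251). MARS1 had log2 fold changes of 0.17 in MYC-OE and -0.10 in SRSF7-OE, and NARS1 -0.19 and 0.11. The 2 tables differ in control and library set, so the table and the control cannot be told apart from the line in these differences.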

How the results depend on the processing

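Of 54 synthetase calls against a control, 27 held in every alternative: 10 of 22 in MYC-OE, 4 of 6 in 3xSR, 6 of 7 in SRSF2-OE, 7 of 12 in SRSF3-OE and none of 7 in SRSF7-OE; no called value of a named synthetase reversed. Removing the GC trend gave 5 lower in 3xSR, 9 lower in MYC-OE, 4 lower in SRSF2-OE, 13 higher in SRSF3-OE, 11 higher and 6 lower in SRSF7-OE, 7 lower in MYC-OE against 3xSR, 14 higher in SRSF3-OE against SRSF2-OE, 10 higher and 8 lower in SRSF7-OE against SRSF2-OE, 12 higher in SRSF7-OE against SRSF3-OE, and 13 lower effects in 3xSR than SRSF3-OE and 2 in MYC-OE than SRSF7-OE. Upper-quartile factors gave 3 lower in MYC-OE, 4 higher in SRSF3-OE, 3 higher in SRSF7-OE, 2 higher in SRSF3-OE against SRSF2-OE, 5 lower in SRSF7-OE against SRSF3-OE, and 1 and 0 lower effects. Total counts alone gave 4 higher and 8 lower in SRSF3-OE and in SRSF3-OE against SRSF2-OE, 10 higher in SRSF7-OE against SRSF2-OE, 13 higher and 4 lower in SRSF7-OE against SRSF3-OE, and 1 lower effect in 3xSR than SRSF3-OE. Fitting only the groups compared gave 4 higher in SRSF3-OE, 3 higher and 0 lower in SRSF7-OE, 13 higher in SRSF3-OE against SRSF2-OE and 10 higher in SRSF7-OE against SRSF2-OE. Without a filter 1 was lower in MYC-OE against 3xSR and 8 were higher in SRSF7-OE against SRSF2-OE. DESeq2 gave 6 lower effects in 3xSR than SRSF3-OE. The cause of these shifts was not tested.

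Leaving out each library gave 1 to 6 higher and 3 to 6 lower in 3xSR, 10 to 19 and 2 to 6 in MYC-OE, 4 to 7 and 2 to 4 in SRSF2-OE, 4 to 10 and 4 to 5 in SRSF3-OE, 0 to 8 and 1 to 4 in SRSF7-OE, 7 to 12 and 0 to 2 in MYC-OE against 3xSR, 2 to 8 and 5 to 6 in SRSF3-OE against SRSF2-OE, 4 to 8 and 3 to 4 in SRSF7-OE against SRSF2-OE, and 7 to 9 and 5 to 9 in SRSF7-OE against SRSF3-OE. For differences of effects it gave 2 to 3 higher and 1 to 8 lower between 3xSR and SRSF3-OE, and 1 higher and 0 to 3 lower between MYC-OE and SRSF7-OE.

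Replicate numbers do not pair the libraries. Correlations of same-numbered libraries ran from -0.19 to 0.0543, and 0 to 3 of 6 libraries in a comparison correlated best with their own number. With the replicate block 3 synthetases were higher and 1 lower in SRSF7-OE and 5 higher in SRSF3-OE against SRSF2-OE. The lowest synthetase count was 797, and the part of depth in these calls was not tested.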
